A study of Mus musculus with 4 samples.

Results

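The regions described here were SCL peaks far from promoters whose summits carried neither of the DNA elements that SCL complexes are best known to bind. They were taken from the deposited list of 12885 SCL peaks on mm9. The study counted fewer SCL-bound loci than this list holds, and the filter behind its smaller set is not given in the sources used here, so the counts, shares and medians below describe the whole deposited list. A peak was included when its summit lay over 1 kb from every transcription start site (TSS) of protein-coding, lincRNA and processed_transcript genes in GENCODE vM1. The bases up to 50 bp from the summit on either side also had to lack, on both strands, a full E-box (CA, any 2 bases, then TG), a GATA motif (GATA preceded by A or T and followed by A or G) and the composite element (CTG followed after 7 to 9 bp by GATA). Of 11793 distal peaks, 1115 passed (9.45%, Wilson 95% interval 8.94 to 9.996). They are called GATA/E-box-negative peaks below.

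The chromatin came from FLK1+ mesoderm cells of day 3.5 embryoid bodies (EBs), grown from wild-type mouse ES cells. The labels give their strain as C57Bl/6 X Sv129, and the peak names and the study's methods give the line as J1. It was immunoprecipitated with an in-house SCL rabbit anti-serum. There were 2 SCL ChIP libraries and 2 input libraries, and the peak list was called by the authors on the merged ChIP replicates. The list holds no value for any single library, so no difference below could be tested over samples. The intervals given cover only counting of peaks, windows or fragments and not the variation between cultures. A FLK1+ sort contains progenitors of several mesodermal lineages, and not every sorted cell expresses SCL.

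SCL (TAL1) is a basic helix-loop-helix protein that controls blood and endothelial specification. It contacts E-boxes as a dimer with E proteins, and through LMO2 and LDB1 it joins GATA factors, which hold the complex at GATA motifs. In blood cells the complex often sits on a composite in which CTG, one side of an E-box, lies a fixed distance from GATA. ETS proteins such as FLI1 and ERG, which bind sequences around GGAA, and RUNX1 share many enhancers with SCL in these lineages.

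The summit windows, reaching 50 bp to either side, are shown for the 10 GATA/E-box-negative peaks with the highest fold enrichment. They show which sequences lay at the strongest summits of the class. Fold enrichment is the MACS2 ratio of fragments at the summit to the local background. Each window is given with its nearest gene, its mm9 position and the plus strand of NCBIM37. Capitals mark 3 things: CTG and GATT 7 to 9 bp apart, the ETS core AGGAA, and GATA that makes no whole GATA motif within the window, because a flanking base is not allowed or lies beyond the edge.
Pdzk1ip1, chr4:114768462-114768562: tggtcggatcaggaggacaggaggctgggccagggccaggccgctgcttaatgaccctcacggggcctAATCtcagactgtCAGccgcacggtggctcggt
9530052E02Rik, chr8:11084224-11084324: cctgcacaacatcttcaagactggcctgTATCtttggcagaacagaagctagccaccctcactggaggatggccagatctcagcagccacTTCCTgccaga
4930440I19Rik, chr2:77926804-77926904: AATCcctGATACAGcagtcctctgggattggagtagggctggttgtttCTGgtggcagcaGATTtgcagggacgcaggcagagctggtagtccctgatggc
C530050E15Rik, chr13:24722339-24722439: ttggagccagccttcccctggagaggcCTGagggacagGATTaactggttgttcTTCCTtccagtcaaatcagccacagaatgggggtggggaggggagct
Fli1, chr9:32364007-32364107: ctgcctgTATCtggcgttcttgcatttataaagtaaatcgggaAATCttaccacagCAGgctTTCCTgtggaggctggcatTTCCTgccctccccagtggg
Gm7457, chr6:142779938-142780038: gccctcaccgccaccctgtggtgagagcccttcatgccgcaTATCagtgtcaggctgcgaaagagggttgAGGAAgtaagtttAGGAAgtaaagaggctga
Gm2574, chr3:142820222-142820322: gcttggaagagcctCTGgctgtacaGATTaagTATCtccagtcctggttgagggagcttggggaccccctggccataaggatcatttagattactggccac
Gm10258, chr3:30253408-30253508: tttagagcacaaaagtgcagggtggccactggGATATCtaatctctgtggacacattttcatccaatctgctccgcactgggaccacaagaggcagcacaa
Jazf1, chr6:53027185-53027285: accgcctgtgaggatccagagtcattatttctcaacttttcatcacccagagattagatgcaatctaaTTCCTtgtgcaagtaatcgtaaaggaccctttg
Gm10152, chr7:151972626-151972726: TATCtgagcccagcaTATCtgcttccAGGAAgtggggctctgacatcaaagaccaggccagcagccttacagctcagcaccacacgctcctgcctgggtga

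The first window belonged to the peak at chr4:114768092-114768756, which had the highest fold of all GATA/E-box-negative peaks. Its fold was 283, with a counting interval of 271 to 296, from 1915 fragments at the summit over a background of 5.76. It was intergenic, 4975 bp from the nearest TSS, that of Pdzk1ip1, and 39.5 kb from the annotated start of Tal1, the gene that encodes SCL. The window next to 9530052E02Rik followed with a fold of 217. The next pair were intronic, in 4930440I19Rik with a fold of 171 and in Fam65b with a fold of 142. The fifth, 15083 bp from the TSS of Fli1, an ETS factor of blood and endothelium, had a fold of 128. The eighth lay in an intron of Mecom, a zinc-finger regulator of blood stem cells, with a fold of 118. The others of the 10 had folds between 91.2 and 126. Each of the 10 summit sequences occurred once in the genome, as judged by its central 31 bp.

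In all 10 peaks a GATA motif, an E-box or a composite ended between 51 and 100 bp from the summit, just beyond the window or across its edge. Across the whole class a complete composite ended within 100 bp in 167 peaks (15.0%), and among these 10 it did so in 6. These stretches, all on the plus strand, are shown with the CTG and GATA of the composite in capitals, because they place the element next to the summit windows printed above.
Pdzk1ip1, chr4:114768562-114768593: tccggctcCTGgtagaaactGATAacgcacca
4930440I19Rik, chr2:77926791-77926822: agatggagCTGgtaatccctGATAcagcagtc
Gm7457, chr6:142780034-142780064: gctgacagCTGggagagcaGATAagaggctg
Gm2574, chr3:142820346-142820376: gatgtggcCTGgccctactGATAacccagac
Gm10258, chr3:30253383-30253413: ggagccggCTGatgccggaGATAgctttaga
Gm10152, chr7:151972707-151972736: acacgctcCTGcctgggtGATAacaagagc

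The far end of these composites lay 52 to 96 bp from the summit. At Pdzk1ip1 the distance was 73 bp, with 9 bp between CTG and GATA. At the Mecom peak, whose nearest TSS was that of Gm10258, it was 67 bp with a spacing of 8 bp. For Fli1, the closest of the absent elements was a GATA motif ending 56 bp away, and no composite was found within 100 bp.

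Across all 1115 GATA/E-box-negative peaks, 806 (72.3%, 69.6 to 74.8) had at least 1 of the elements within 100 bp of the summit. The comparison used windows centred 1 kb from these summits on both sides, of which 1001 of 2230 (44.9%) passed the same motif rule. Around the centres of those flanking windows the corresponding share was 53.2% (50.1 to 56.3). The elements differed in this respect. GATA motifs ended within 75 bp of the summit in 33.4% of GATA/E-box-negative peaks and in 8.99% of flanking windows, a ratio of 3.71. Composites ended within 75 bp in 112 peaks (8.42 to 11.9%) against 1.40%, a ratio of 7.18. E-boxes ended within 75 bp in 27.1% (24.6 to 29.8) against 23.2% (20.7 to 25.9), with overlapping intervals. By 200 bp, E-boxes were found around 78.7% of the summits and 79.5% of the flanking centres. GATA motifs and composites were therefore more frequent just beyond the window than 1 kb away, while for E-boxes the intervals overlapped.

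**Figure D1:**
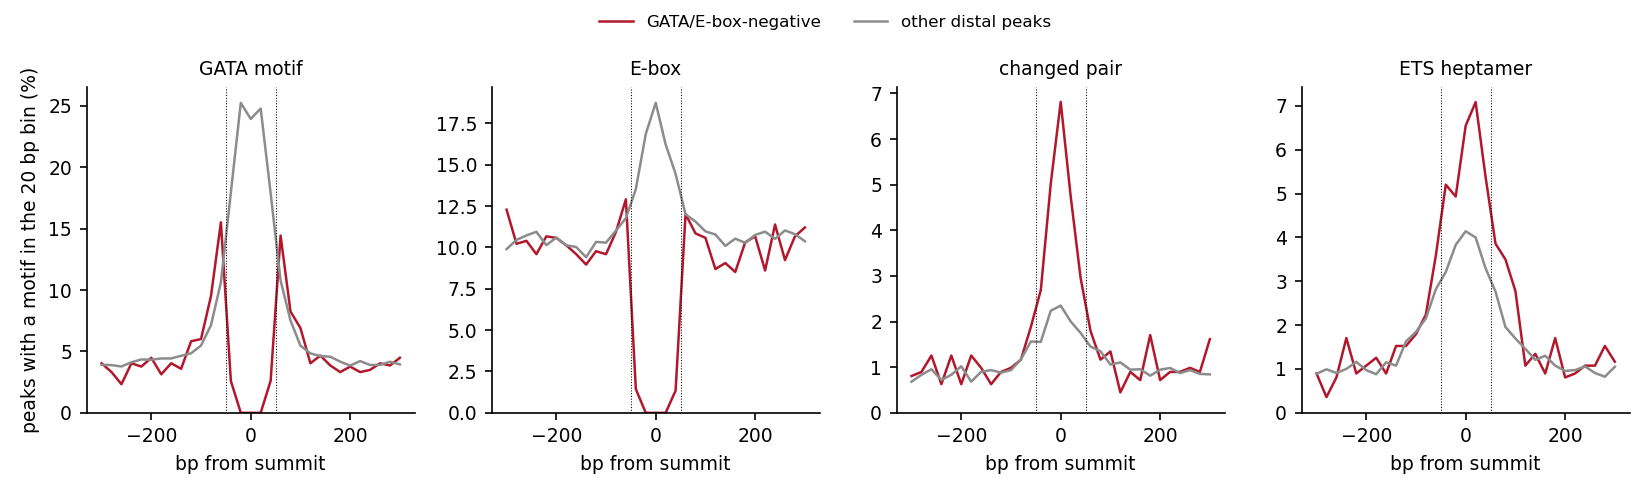
Share of peaks with a motif whose midpoint falls in each bin of 20 bp (vertical axes, %, each panel on its own scale) by distance from the summit (bp). Red lines are the 1115 GATA/E-box-negative peaks, grey lines the 10678 other distal peaks, and dotted lines the edges of the window in which the rule allows no GATA motif or E-box. In red, the GATA motif stands at 15.5% and 14.4% in the bins just outside the window. The changed pair (CTG and GATT 7 to 9 bp apart) is highest in the summit bin, at 6.82%. The ETS heptamer is highest in the bin centred at 20 bp, at 7.09%, against 6.55% in the summit bin.

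A further 198 peaks (17.8%) had an element elsewhere in the deposited peak interval, and 111 (9.96%) had none within 100 bp or within the interval. The peaks with no element anywhere were the weaker ones. Their median fold was 7.41 (order-statistic 95% interval 6.91 to 8.14), against 9.31 (8.92 to 9.65) for those with an element within 100 bp and 8.85 (8.42 to 9.91) for those with one further out. The highest fold among the 111 was 35.1. They were also narrower, with a median width of 277 bp against 394 bp and 453.5 bp. The part of this narrow width in the absence of an element was not tested. Their central 31 bp occurred more than once in the genome in 27.03%, against 4.84% of the 806 and 6.57% of the 198. A background above 10 times the median of the list was found at 9 of the 111, 8 of the 806 and 2 of the 198. The part of such background in the lower fold of the 111 was not tested.

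GATA/E-box-negative peaks were the weakest of the distal motif classes by median fold. Their median was 9.01 (8.69 to 9.32), with the middle of the distribution between 7.02 and 14.0. Distal peaks with an E-box alone had a median of 9.46 (9.17 to 9.90), and the intervals of these neighbours in the order overlapped. The medians were 10.8 for a GATA motif alone, 11.4 for a GATA motif with a separate E-box and 13.3 for the composite. The solved number of fragments at the summit followed the same order, with medians of 46 in GATA/E-box-negative peaks, 48, 52, 53 and 60. A count of 46 fragments has a Poisson 95% interval of 33.7 to 61.4, so single peaks near the median could not be ranked. The local background was alike in these classes, with medians between 3.59 and 3.81 fragments.

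The class nevertheless covered a wide range of strength, from a fold of 1.61 to 283. A fold of at least 10 was reached by 474 of 1115 (42.5%, 39.6 to 45.4), where 57.2% of all distal peaks reached it. The difference from the other distal peaks was -16.3 percentage points (Newcombe interval -19.3 to -13.2). A fold of at least 50 was reached by 42 (3.77%), where the share over all distal peaks was 7.25%, and at least 100 by 8 (0.717%), against 1.60% of all distal peaks. Ranked by fold, GATA/E-box-negative peaks made up 210 of 1180 (15.7 to 20.1%) in the lowest of 10 equal groups of distal peaks and 59 of 1180 (3.90 to 6.40%) in the highest. None of the 42 strongest was without an element within 100 bp or within the peak. In 37 of them the element lay within 100 bp and in 5 further out.

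**Figure D2:**
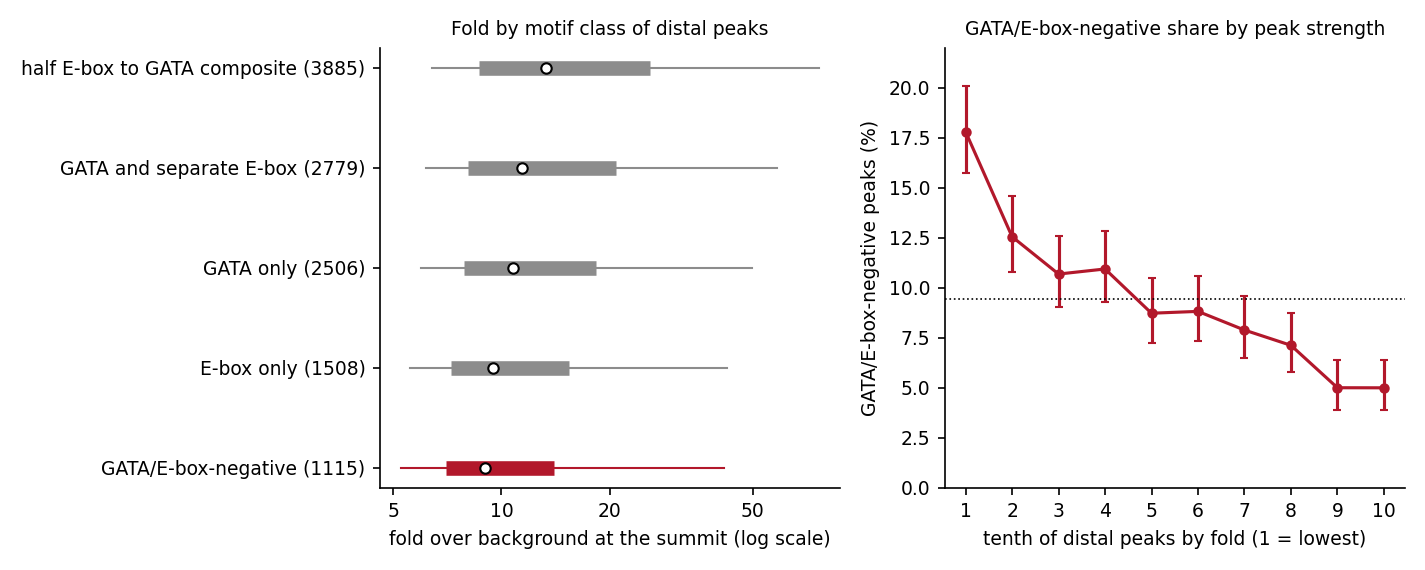
Left, fold over background (log axis) by motif class of distal peaks, with the number of peaks in brackets. Circles are medians, thick bars run between the quartiles and thin lines between the outer percentiles (5 and 95), and the GATA/E-box-negative class has the lowest median, 9.01. Right, share of GATA/E-box-negative peaks (%) in 10 equal groups of distal peaks ranked by fold, with Wilson 95% intervals and the share over all distal peaks as a dotted line. It falls from 17.8% in the lowest group.

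At the summits themselves, a composite with 1 base changed was in large excess over the flanking windows. The 12 possible single-base changes of GATA were each counted in the composite, with CTG 7 to 9 bp before them and both strands searched. Positions are counted from 1 at the G of GATA. The change A4T, which gives GATT, was present in 219 of 1115 summit windows (19.6%, 17.4 to 22.1). It was present in 2.70% (1.86 to 3.90) of flanking windows, so the ratio was 7.28. With flanking windows 500, 700 or 1400 bp away the ratio was 4.35, 5.57 or 5.63, and against the 3.79% of all windows 1 kb from any distal summit that passed the motif rule it was 5.18. The other 11 changes had ratios from 0.299 to 1.99 and shares from 0.897% to 13.9%. The highest of these shares belonged to GAGA (T3G), which flanking windows held in 6.99%.

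Spacing narrowed the pattern further. CTG and GATT were 9 bp apart in 11.1% (9.41 to 13.1) of GATA/E-box-negative summits and 8 bp apart in 7.35% (5.96 to 9.04). At 10 bp the share was 4.66% and at 7 bp 1.79%. Every other spacing from 0 to 20 bp was found in 1.70% to 4.04% of summits, and in flanking windows no spacing exceeded 2.90%. Counted over all 11793 distal peaks, the unchanged pair of CTG and GATA was found in 18.3% at 9 bp, 12.5% at 8 bp and 6.60% at 10 bp. At 7 to 9 bp the rule allows it in no GATA/E-box-negative window, so the values at 9 and 8 bp come from the other classes. The bases around GATT also resembled the GATA motif. Of 231 GATT occurrences in such pairs, 71.0% (64.8 to 76.5) were preceded by A or T and followed by A or G, against 28.8% (25.4 to 32.6) of all GATT in flanking windows.

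**Figure D3:**
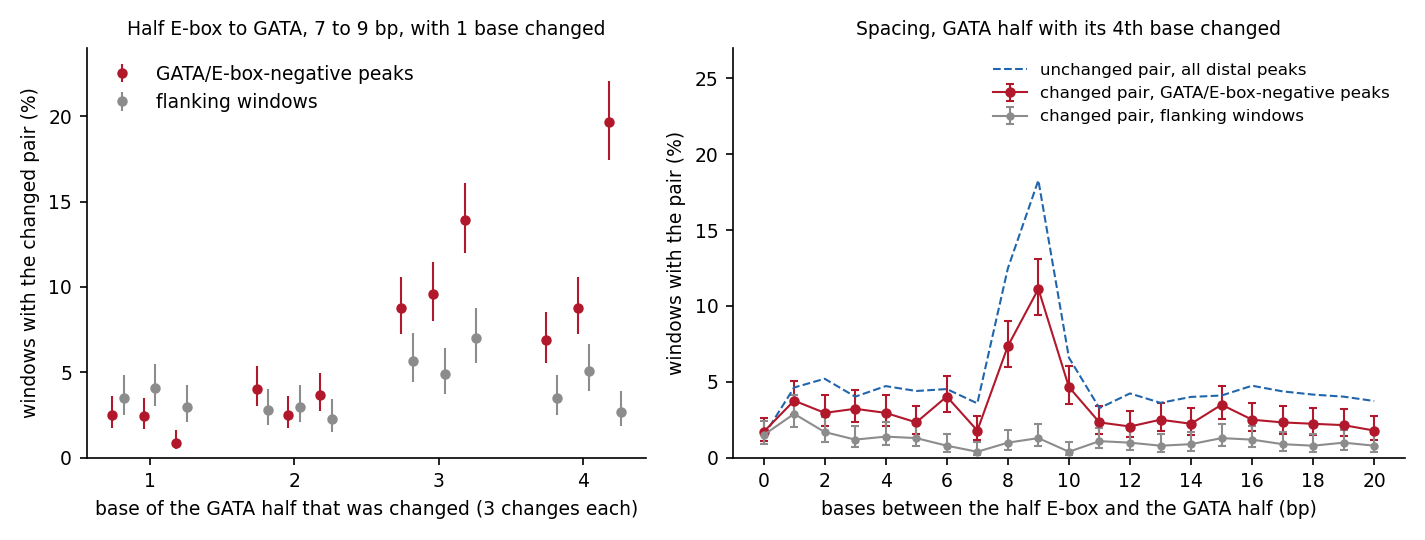
Left, share of windows (%) holding CTG and, 7 to 9 bp on, GATA with 1 base changed, at the summits of GATA/E-box-negative peaks (red) and in flanking windows (grey), by the position of the changed base. At each position the 3 new bases stand in alphabetical order, and A4T at 19.6% is the highest point. Right, share with CTG and GATT by the number of bases between them, with the unchanged pair in all distal peaks as a dashed line, with maxima at 9 bp. Bars are Wilson 95% intervals.

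The GATT pair occurred in all distal classes and was most frequent where GATA motifs were absent. It was found at 5.84% of summits with the composite, 8.02% of those with a GATA motif and separate E-box, 8.58% with a GATA motif alone, 16.5% (14.7 to 18.5) with an E-box alone and 19.6% of GATA/E-box-negative summits. Windows 1 kb from distal peaks that fell in the same motif classes held it in 3.66% to 4.51%. Over all 12885 peaks the share was 9.31%. The difference between GATA/E-box-negative and other distal summits was 11.1 percentage points (8.79 to 13.6). The 2 classes without a GATA motif were thus set apart from the 3 classes with 1, and their own intervals overlapped.

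The 8 GATA/E-box-negative peaks of highest fold with a GATT pair at 8 or 9 bp are shown on the strand on which CTG comes first, with both elements in capitals, so that the alignment can be read directly.
Pdzk1ip1, chr4:114768522-114768553, minus strand: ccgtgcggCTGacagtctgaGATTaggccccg
4930440I19Rik, chr2:77926844-77926875, plus strand: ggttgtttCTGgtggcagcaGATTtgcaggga
C530050E15Rik, chr13:24722358-24722388, plus strand: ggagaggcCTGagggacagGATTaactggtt
Fli1, chr9:32364042-32364073, minus strand: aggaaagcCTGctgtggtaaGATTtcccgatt
Gm2574, chr3:142820228-142820258, plus strand: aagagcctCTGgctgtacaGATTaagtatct
Runx1, chr16:92996625-92996655, plus strand: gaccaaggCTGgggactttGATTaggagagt
Exoc6, chr19:37636188-37636218, plus strand: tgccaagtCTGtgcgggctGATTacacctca
Ezh1, chr11:101093631-101093662, minus strand: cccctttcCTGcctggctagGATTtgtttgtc

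The pairs at Pdzk1ip1 and Fli1 both stood 9 bp apart and on the minus strand. The Runx1 peak lay 170 kb from the nearest Runx1 TSS and had a fold of 90.2 from 704 fragments. RUNX1 is required for the emergence of blood cells from endothelium. Exoc6 and Ezh1 peaks had folds of 81.5 and 73.3. The GATT letters stood within the summit window in each case. The rule allows no whole canonical composite in these windows, although the one at 4930440I19Rik held the GATA of a composite whose CTG lay beyond the edge.

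GATA/E-box-negative peaks with the GATT pair had higher folds than those without. The 219 with it had a median fold of 11.4 (9.91 to 12.5) and the 896 without it 8.68 (8.35 to 8.997). A fold of at least 10 was reached by 55.7% (49.1 to 62.1) and 39.3% (36.1 to 42.5), respectively. Among the 42 peaks with a fold of at least 50, 17 had the pair (40.5%, 27.04 to 55.5). The pair was about as frequent in peaks with a canonical element within 100 bp (18.7%), further within the peak (22.7%) and nowhere (20.7%, 14.2 to 29.2), and these intervals overlapped.

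The ETS sequence CAGGAAG was the other main feature of these summits. It was present in 272 (24.4%, 21.97 to 27.001) and in 5.09% (3.90 to 6.64) of flanking windows, a ratio of 4.79. With flanking windows 500, 700 or 1400 bp away the ratio was 7.21, 5.23 or 5.57. Other distal summits held it in 16.6% (15.9 to 17.3) and all peaks in 16.9%. The shorter core AGGAA, which CAGGAAG contains, was present in 707 (63.4%, 60.5 to 66.2), against 36.8% of flanking windows and 51.4% of other distal summits. The PU.1-type form GAGGAAG was present in 9.96% against 4.40%. The form CCGGAAG, typical of CpG-rich promoters, was found in 13 windows (1.17%) against 0.699%, with overlapping intervals. Across the motif classes the share with CAGGAAG was 13.8% at composites, 15.0% with a GATA motif and separate E-box, 18.8% with a GATA motif alone, 22.7% with an E-box alone and 24.4% in GATA/E-box-negative peaks, the same order as for the GATT pair. Windows 1 kb from distal peaks that fell in the same classes held it in 2.22% to 5.46%. The ratios to them, in the order just given, were 2.53, 6.76, 5.76, 6.56 and 5.57. By ratio, CAGGAAG was therefore not particular to GATA/E-box-negative peaks.

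**Figure D4:**
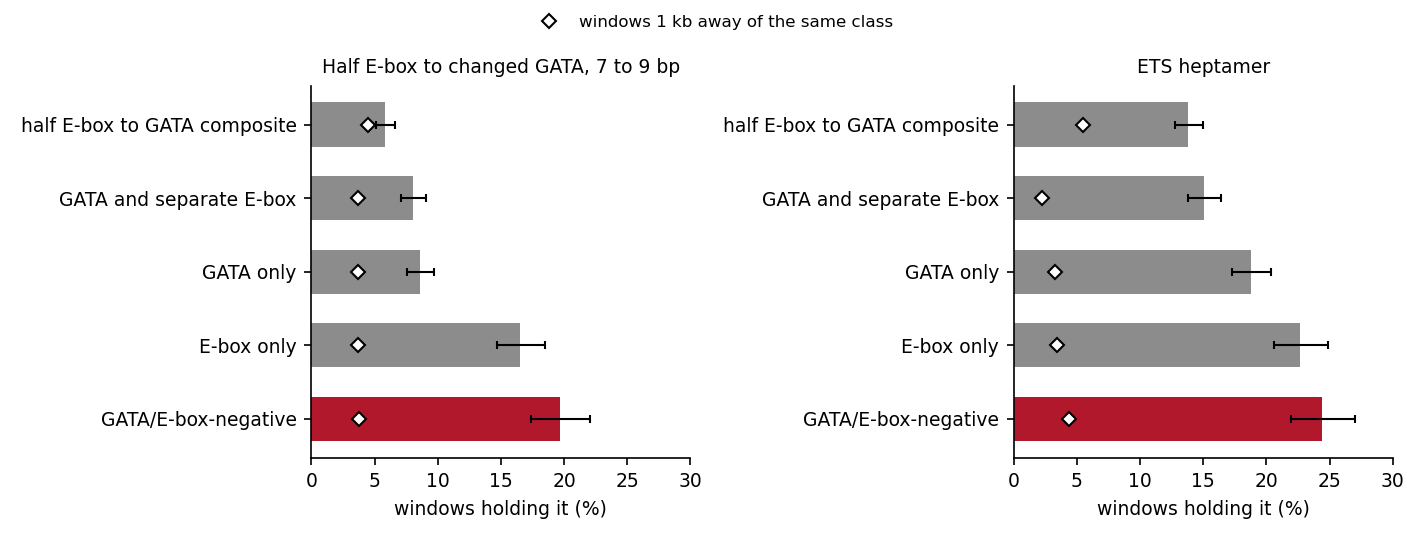
Share of summit windows (%) with CTG and GATT 7 to 9 bp apart (left) and with the ETS heptamer CAGGAAG (right) in the 5 motif classes of distal peaks. Bars are shares with Wilson 95% intervals, and diamonds are windows 1 kb from distal summits that fall in the same class. Both shares are highest in GATA/E-box-negative peaks, 19.6% and 24.4%, with intervals that overlap those of peaks with an E-box alone.

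Unlike the GATT pair, CAGGAAG went with little difference in strength. The median fold was 9.34 (8.54 to 10.4) in the 272 with it and 8.92 (8.66 to 9.31) in the 843 without it. Both features were present in 52 peaks, with a median fold of 11.5 (9.15 to 13.7). Neither was present in 676 peaks (60.6%), with a median fold of 8.66. Of these, 72 also had no canonical element within 100 bp or in the peak, and their median fold was 6.83 (6.17 to 7.41).

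The other sequences counted moved less. Of 25 motifs, 14 had a difference from flanking windows whose Newcombe interval lay above 0, none had one below 0, and 11 had an interval that included 0. Besides the ETS forms, these 14 included AP-1 (TGANTCA, 6.28% against 2.997%), the T-box sequence GGTGTGA (3.50% against 1.60%), the GFI1 sequence AATCAC (6.37% against 3.596%), the RUNX sequence TGTGGT (10.9% against 6.49%), the TEAD sequence GGAATG (8.61% against 5.09%) and the MEIS sequence TGACAG (10.5% against 6.19%). The KLF sequence CCACCC (12.3% against 8.09%), the SP sequence GGGCGG (4.30% against 2.60%) and the SOX sequence ACAATG (8.16% against 5.39%) were also among the 14, as was the bare CTG, at 99.1% against 96.5%. AATCAC overlaps GATT read on the opposite strand. The bare letters GATA, with a flanking base outside the motif, completed the 14, in 34.1% of summits and 22.5% of flanking windows. Shares in other distal summits were 9.73% for TGTGGT, 5.06% for AP-1 and 11.4% for TGACAG, the last above that of GATA/E-box-negative summits.

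**Figure D5:**
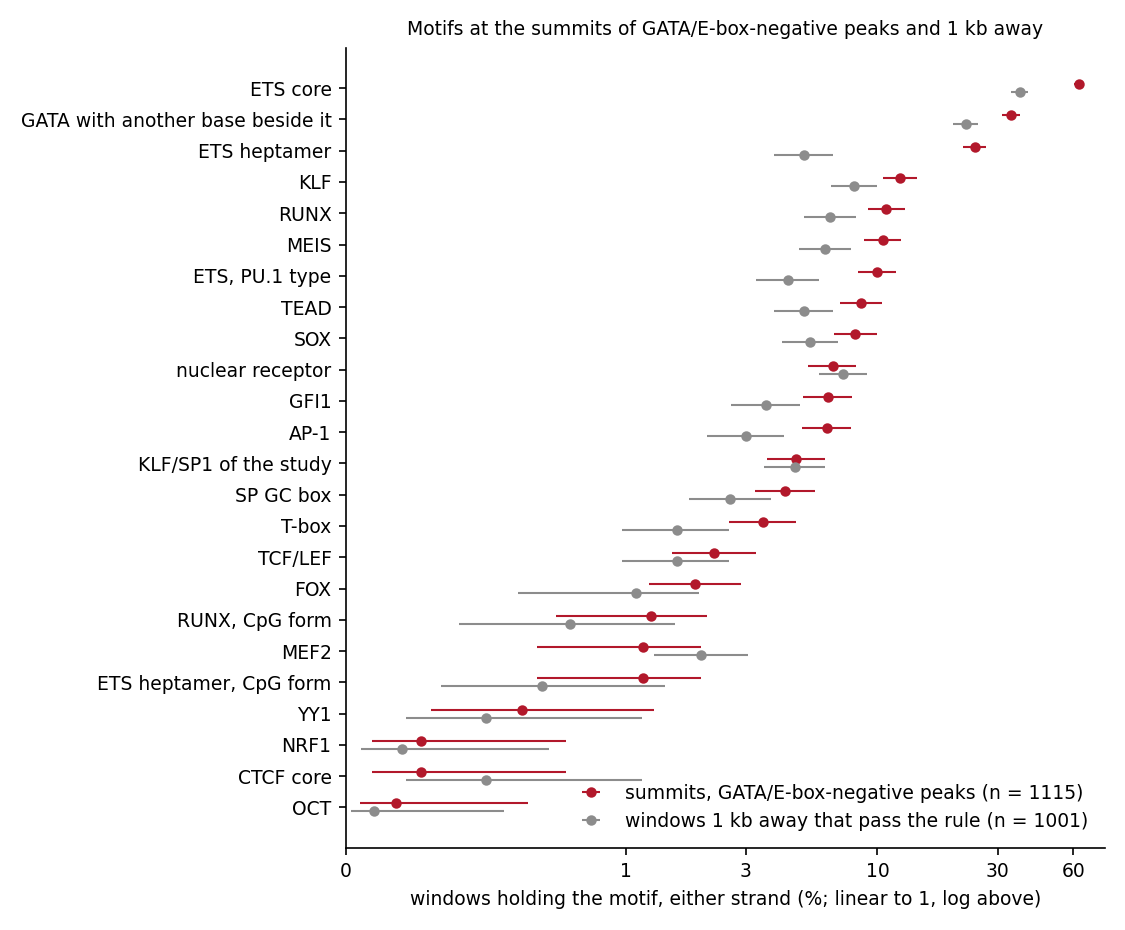
Share of windows holding each motif on either strand (%, linear to 1 and logarithmic above), at 1115 GATA/E-box-negative summits (red) and in 1001 windows 1 kb away that pass the same rule (grey), with Wilson 95% intervals. The ETS heptamer has the highest ratio, 24.4% against 5.09%, and the ETS core AGGAA the largest difference, 63.4% against 36.8%, while nuclear receptor, MEF2 and CTCF sequences are no more frequent at the summits.

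The nuclear receptor sequence AGGTCA was found in 6.64% of summits and 7.29% of flanking windows, the MEF2 sequence (CTA, any 4 bases, then TAG) in 1.17% and 1.998%, and the CTCF core (CC, any 3 bases, then AGG, any 1 base, then GGC) in 0.269% and 0.4995%, all with overlapping intervals. CTCF organises chromatin loops, and MEF2 acts in muscle and heart. Shares were also close for the KLF/SP1 sequence CCAACC that the study searched (4.75% and 4.70%), the FOX sequence TGTTTAC (1.88% and 1.099%), the TCF/LEF sequence ATCAAAG (2.24% and 1.60%) and the RUNX form TGCGGT (1.26% and 0.799%). The OCT octamer ATGCAAAT, the YY1 sequence AAGATGGC and the NRF1 sequence GCGCATGC were in 2, 7 and 3 summit windows, against 1, 5 and 2 flanking windows.

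Without any choice of motif, all 6-mers present in at least 2% of the summits were ranked by their ratio to flanking windows, 1335 in all. CTAATC, which contains GATT on the other strand, came first, with 199 windows (17.8%) against 2.30%, a ratio of 7.77. CTCGCC came second, in 3.23% against 0.4995%, a ratio of 6.46. The 6-mer AGATTA had 16.7% against 3.50%, a ratio of 4.77, and GCGAGA, which overlaps CTCGCC read on the other strand, had 2.78% against 0.599%, a ratio of 4.64. CTGATA and CTTATC, which contain GATA letters with a flank the rule let pass, were in 6.28% and 4.75%, against 1.70% and 1.30%. GCAGGA followed with 26.5% against 7.29%, a ratio of 3.64. The last of the first 10 were CGGAAA, an ETS-like sequence (3.59%, against 10 flanking windows), GATTAC (6.91% against 1.998%) and the palindrome GGCGCC (2.06% against 0.599%). Thus 4 of the 10 contained CpG, and the counts behind their flank shares were 5 to 10 windows.

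GATA/E-box-negative windows had 1.71 ± 2.10 CpG (mean ± SD over 1115 windows), other distal windows 1.22 ± 1.35 and those with an E-box alone 1.38 ± 1.51. Median GC content was 52.5% in both classes without a GATA motif and 50.5% in other distal windows together. Among the 111 peaks with no element anywhere, the mean was 2.57 ± 3.34.

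In position, GATA/E-box-negative peaks differed little from other distal peaks. The summit was intergenic in 56.1% (53.1 to 58.9), intronic in 41.9% and exonic in 2.06%. Among other distal peaks 52.9% were intergenic, a difference of 3.16 percentage points (0.0821 to 6.199). Summits lay at a median of 25.9 kb from a TSS (22.5 to 29.4) against 24.4 kb (23.4 to 25.2). At the edge of the rule, the nearest included peak lay 1023 bp from the TSS of Rragd, with a fold of 7.28. The nearest one left out lay 1000 bp from the TSS of St6gal1, with a fold of 7.69. By chromosome their share of distal peaks ranged from 5.36% on X (14 of 261) to 12.7% on 15 (64 of 502), apart from Y, where 4 of 5 distal peaks belonged to the class.

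Another SCL peak lay within 10 kb of the summit in 402 GATA/E-box-negative peaks (36.1%, 33.3 to 38.9), where 31.0% of all distal peaks had such a neighbour. The share fell from class to class, to 32.8% with an E-box alone and 29.1% (27.7 to 30.6) with the composite. For 371 (33.3%) a neighbour within 10 kb held a canonical element at its own summit, where 28.5% of all distal peaks had such a neighbour. Among peaks with any neighbour within 10 kb the shares were alike, 92.3% (89.3 to 94.5) in the class and 92.04% (91.1 to 92.9) in other distal peaks. The nearest neighbour had the higher fold in 246 of the 402 (61.2%, 56.3 to 65.8), against 49.03% (47.3 to 50.8) for other distal peaks with such a neighbour. These sets were not matched on fold, and the median over all peaks was 9.01 in the class and 11.6 in other distal peaks. The difference cannot be told apart from the lower folds of the class. Among the 42 peaks with a fold of at least 50, 22 had a neighbour of any fold within 10 kb (52.4%, 37.7 to 66.6), where 44.6% (41.3 to 47.9) of all distal peaks with such a fold had one. The median fold hardly differed between peaks with a neighbour (9.001) and without (9.005).

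A small group of the class stood in sequence of high background. Background above 10 times the median of the list, or 36.7 fragments, was found at 19 GATA/E-box-negative peaks (1.70%, 1.09 to 2.65), where the share over all distal peaks was 0.365%. Other distal peaks added 24, and 16 of these had an E-box alone. The 3 with the highest background were all on chromosome 9. The peak at chr9:35112913-35113116 had 14673 fragments over a background of 5621 and a fold of 2.61. The peaks at chr9:3002098-3002248 and chr9:3006759-3006970 had folds of 1.96 and 1.89 over backgrounds of 1209 and 908. Their central 31 bp occurred 8 and 67 times in the genome, whereas that of the first occurred once. Among all 19, the median fold was 2.56 and 12 had a repeated centre. Over the whole class, 82 (7.35%, 5.96 to 9.04) had a repeated centre, against 3.78% of other distal peaks. The part of repeated sequence in the calls of these peaks was not tested. The median fold of the class was 9.12 without the 19, and 9.12 again without the 82.

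The nearest TSS assigned the 1115 peaks to 986 genes. Most of these, 881, had 1 such peak, and Cgnl1, Gm11019 and Gm3395 had 4 each. For 313 genes (31.7%) no other SCL peak was nearest, and among the 673 genes with other peaks a GATA/E-box-negative peak was the strongest at 166. These counts have no counterpart here for other distal classes, so they do not set this class apart. A nearest TSS does not show which gene a region acts on.

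By number, endothelial genes had the most such peaks among the gene lists examined, and by share of distal peaks the erythroid list stood higher, 3 of 9 (33.3%, 12.1 to 64.6). Of 13 endothelial genes, 12 had distal peaks and 7 had at least 1 GATA/E-box-negative peak, 14 of 70 distal peaks in all (20%, 12.3 to 30.8). The share over all distal peaks was 9.45%. At Cdh5, which encodes VE-cadherin of endothelial junctions, 3 of 9 distal peaks belonged to the class, and the strongest SCL peak of the gene was one of them. It lay at chr8:106623148-106624030, 2.10 kb from the TSS, with a fold of 21.7, while no other distal peak of Cdh5 exceeded 8.52. At Efnb2, which encodes the arterial ligand ephrin-B2, 3 of 14 belonged to the class, and again the strongest was one of them, with a fold of 90.6 at 151 kb from the TSS, against 66.5.

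The other endothelial genes had stronger peaks of other classes. At Kdr, which encodes FLK1 itself, the 2 GATA/E-box-negative peaks had folds of 7.498 and 15.9, against 183 for the strongest other distal peak. At Flt1, another VEGF receptor, the folds were 6.80 and 29.99, against 137. Aplnr, the apelin receptor, had 2 with folds of 4.60 and 6.70, against 152. Single peaks at Tek, the TIE2 receptor, and at Sox7, a SOXF factor, had folds of 10.7 and 10.8.

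Among 16 blood transcription factors, 4 genes had a GATA/E-box-negative peak, 5 of 51 distal peaks (9.80%, 4.26 to 20.98). That at Fli1, printed above, was the strongest of the 9 SCL peaks of the gene, with a fold of 128 against 37.1 for the next distal one. Runx1 had 2 of 16, with folds of 90.2 and 5.12, while its strongest other peak had a fold of 298. Gata2 had 1 with a fold of 11.8, and Tal1 had 1 nearest to its own TSS, at 3.54 kb with a fold of 5.89. Among 12 repressors and corepressors, 3 of 80 distal peaks belonged to the class (3.75%, 1.28 to 10.5). These were single peaks at Gse1 (fold 4.31), Gfi1b (7.12) and Rybp (11.4), and the strongest other distal peaks of the same genes had folds of 233, 92.3 and 119.

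The remaining lists had few distal peaks. Among 14 cardiac and paraxial genes, 4 of 25 distal peaks belonged to the class. At Msx1, a homeobox gene, a GATA/E-box-negative peak 1.28 kb from the TSS was the strongest, with a fold of 71.1 against 29.99. The single SCL peak of Mesp1, a regulator of cardiac mesoderm, was GATA/E-box-negative, with a fold of 8.01 at 5.10 kb. Wnt5a, a signalling ligand, had 1 of 6, with a fold of 15.4. Among 9 early mesoderm genes the only one was at Etv2, an ETS factor that acts upstream of Scl, with a fold of 8.66. Among 9 erythroid genes, 3 of 9 distal peaks belonged to the class, 2 at Gypc, which encodes glycophorin C, with folds of 10.02 and 29.1, and the one at Gfi1b.

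The study's lists of SCL-bound genes that are activated or repressed by SCL were matched by name. The study set the direction of those genes by RNA-seq, but listed them only if SCL-bound in the ChIP data used here. The counts are therefore no independent evidence that these peaks lie near regulated genes. An activated gene was nearest to 128 GATA/E-box-negative peaks (11.5%, 9.74 to 13.5), where 10.9% of all distal peaks had one. A repressed gene was nearest to 40 (3.59%, 2.65 to 4.85), where the share over all distal peaks was 3.76%. The differences from other distal peaks were 0.691 percentage points (-1.15 to 2.78) and -0.187 (-1.20 to 1.12), and both intervals included 0. The median fold of the 128 was 9.53 (8.54 to 11.2) and that of the 40 was 8.22 (7.41 to 11.6). Other distal peaks had medians of 14.2 next to activated genes and 10.96 next to repressed ones.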

How the data were processed

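SCL was immunoprecipitated from day 3.5 FLK1+ EB cells in 2 libraries, with 2 inputs. Per the study's methods and the submitters' processing notes, the authors aligned paired-end reads to mm9 with Bowtie 1.1.2 (-m 2, reads with more than 2 alignments dropped), removed duplicates, called peaks with MACS2 2.0.10 and merged both replicates with IDR. The deposited narrowPeak list gives each peak a fold (a ratio of fragments to local background), −log10 p, −log10 q and a score, which the authors' caller set to 10 times −log10 p. The score was used only for that check. Totals per library are not given in the list.

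Fragments at each summit and their background were solved from the deposited fold and −log10 p as the whole number that gives both, with 1 added to fragments and background as MACS2 does. The solved −log10 p was within 0.001 in 99.9% of peaks. TSSs came from 26225 GENCODE vM1 genes and sequence from NCBIM37. Motifs were counted by exact match on both strands. Of the study's activated and repressed genes, 773 of 778 were matched by symbol or synonym. Shares have Wilson intervals, differences Newcombe's, medians order-statistic and fragments Poisson intervals, all at 95%. The calculations used Python 3.11.15, numpy 2.4.6, pandas 2.3.3 and scipy 1.17.1, and were tested on simulated data.

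The class, motifs and gene lists were chosen with earlier results of these data known. Named peaks are the 10 of highest fold with a background of at most 10 times the median and the 3 of highest background, named genes those of the lists nearest to at least 1 peak of the class, and named 6-mers the first 10 by ratio. The scan of changed GATA letters and the GATT sites were added after the data were seen. Alternatives changed the motif window, TSS distance and set, peak threshold, background limit, joined summits, neighbour distance, ETS motif and gene assignment.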

Additional observations from a re-analysis of the deposited data

How the results depend on the processing

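No paired analysis was possible because both numbered libraries of each kind were pooled before peak calling and carry no values of their own, and leaving out each replicate was not run for the same reason. All shares below are in percent.

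Of 108 values recomputed under alternatives, 64 stayed within the 95% interval of the reported value (for the number of peaks, within 1.5 times) and 44 moved. A TSS distance of 500 bp or 5 kb and joined summits moved none. Protein-coding TSSs alone moved 1, the share nearest to an activated gene, to 13.7.

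With the motif window at 25 bp on each side the class held 3651 peaks, 30.96 of distal ones, with a median fold of 9.89, 49 fragments, 0.767 with high background, 33.0 with a neighbour, 57.7 with AGGAA, 13.1 with the GATT pair and 21.5 with CAGGAAG. For 100 bp it held 309 peaks, 2.62 of distal ones, with a fold of 8.29, 3.56 with high background and 9.06 nearest to activated genes. With the whole peak it held 113, or 0.958, with a fold of 7.41, 43 fragments, 8.85 with high background, 30.97 with a neighbour, 50.4 with AGGAA, 8.85 nearest to activated genes and 18.6 with CAGGAAG. In all these settings only membership changed, and AGGAA, the GATT pair and CAGGAAG were still counted up to 50 bp from the summit.

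With a fold of at least 10 there were 474 peaks, 7.02 of distal ones, with a fold of 15.6, 77 fragments, 0 with high background, 27.2 with a neighbour and 25.7 with the GATT pair. At −log10 q of at least 50 there were 323, or 6.73, with a fold of 20.5, 111 fragments, 25.7 with a neighbour, 13.9 nearest to activated genes and 25.4 with the GATT pair. In both of these settings neighbours had to pass the same threshold. Leaving high-background peaks out set their share to 0 by construction, and a limit of 5 times the median set it to 2.96. A neighbour within 5 kb was found for 26.4 and within 50 kb for 68.2, CAGGAAG or CCGGAAG in place of AGGAA for 25.4, and an activated gene by body or 10 kb on either side for 9.42.

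The alternatives for the GATT pair and CAGGAAG, and those on repeated centres, were chosen after seeing the data. Flanking windows at 500, 700 and 1400 bp held the pair in 4.51, 3.52 and 3.49, against 2.70 at 1 kb, and CAGGAAG in 3.38, 4.67 and 4.38, against 5.09.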
